A study of Gallus gallus with 10 samples.

Results

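The genes described here are chicken genes whose level in the induced optic tectum (iTeO) lay below that in both natural tissues studied, the optic tectum (TeO) and the cerebral cortex (NCC), while TeO and NCC differed from each other by less than 2-fold. They were chosen from the measured levels, given as CPM, that is, the counts of a gene per 1000000 counts on chicken genes of the same library. A gene was taken when its TeO and NCC means were each at least 2 CPM and each more than 2 times the iTeO mean, when the ratio of the TeO to the NCC mean lay between 0.5 and 2, and when the highest iTeO library lay below the lowest of the 6 TeO and NCC libraries. Of 24881 chicken genes, 41 met these conditions. Because the rule used the levels in all 10 libraries, the difference of these genes between iTeO and the natural tissues is a description and was not tested.

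The iTeO is chicken tissue that formed in the diencephalon of embryos in which a piece of the anterior diencephalon had been replaced, at stage HH11, by human neuroepithelial cells (NECs). The NECs, made by the 3-day protocol, derived from embryonic stem cells for 2 of the 4 iTeO libraries, called iTeO (ES), and from induced pluripotent stem cells for the other 2, called iTeO (iPS), with 1 human line of each kind, RH6 and RiPSC4. The 3 TeO and 3 NCC libraries came from natural tissue, and all samples are labelled WT. Whether the natural tissue came from implanted or untouched embryos, and at what age it was taken, is not given in the sources used here. Per the methods, implanted embryos were in general killed 19 days after implantation unless another day was named, and no day is named for these libraries. Whether a sample pools embryos is not given in the sources used here, so p-values measure only the spread between these samples, which may be in part technical.

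The optic tectum is the layered roof of the avian midbrain and receives the axons of retinal ganglion cells. The cerebral cortex belongs to the telencephalon, a separate division of the forebrain, and the diencephalon, into which the cells were implanted, lies between the telencephalon and the midbrain. During development the isthmic organizer, a signalling centre at the boundary of midbrain and hindbrain, directs the formation of the tectum. In whole tissue, a lower level in a library can reflect fewer cells of a type or less RNA per cell, and these cannot be told apart.

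Genes are listed by Ensembl identifier, the file does not pair identifiers with names, and 0 of the 24881 chicken identifiers matched the gene table used here. The functions of the 41 genes, the cell type markers and the marker check of the tissue labels were therefore not analysed here, and only 4 identifiers are printed. The other genes are referred to by their rank of level, where rank 1 has the highest value of the lower of its TeO and NCC means. Total counts ran from 7832388 to 10566585 in the iTeO libraries and from 10906465 to 11631102 in the natural ones. Counts on human genes made up 0.371% and 0.299% in the replicate 1 libraries of iTeO (ES) and iTeO (iPS), against 0.129% and 0.124% in their replicate 2 libraries and at most 0.137% in TeO and NCC. The most counted chicken gene held 15.2% of chicken counts in both replicate 1 libraries of iTeO, 13.4% and 13.3% in the replicate 2 libraries, and 18.5% to 22.0% in the natural libraries.

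The conditions of the rule removed genes in steps. TeO and NCC means of at least 2 CPM were found for 11573 genes, and 10427 of these also had a TeO to NCC ratio within 0.5 to 2. Of these, 44 had both means above 2 times the iTeO mean, and 3 of the 44 were then lost because an iTeO library overlapped the natural ones. Among the 10427 genes, 5.73% had every iTeO library below every TeO and NCC library at any fold, and the 41 genes have this by choice. A further 46 genes met every condition except the minimum of 2 CPM, and 3 met every condition except the ratio of TeO to NCC, all 3 with a higher NCC mean.

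The same conditions were applied to the other tissues to place the number of 41, without a test. Lower in TeO than in both iTeO and NCC were 56 genes, and lower in NCC than in both tecta were 547. With the conditions mirrored, 419 genes were higher in iTeO than in both natural tissues, 47 were higher in TeO alone and 392 in NCC alone. The mirrored rule asked for at least 2 CPM in the higher tissue only, so it drew on a different pool of genes. The order of iTeO and TeO turned with the scaling: with TMM factors the numbers lower in only iTeO, TeO and NCC were 92, 29 and 454, and with the size factors of DESeq2 they were 91, 30 and 456. The groups differ in size, so the condition on overlap is not equally strict for each tissue.

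These numbers depend on how libraries are scaled. In CPM, the median log2 ratio of iTeO to the mean of TeO and NCC was 0.17 over the 11573 genes, so that the typical gene lay above its natural level in iTeO. With TMM factors, which equalize the bulk of genes between libraries, this median was -0.04. The 41 genes had a median log2 ratio of -1.48 in CPM and of -1.69 with TMM factors. Relative to the median of all genes it was -1.65 under both, since a factor per library moves all genes of that library alike. With TMM factors the rule took 92 genes, all 41 among them, while the mirrored rule took 282 genes, against 41 and 419 in CPM. The rules set their minimum of 2 CPM in different tissues, so no imbalance between lower and higher genes is read from these numbers. The gene of the 41 nearest to its natural level had a log2 ratio of -1.04 in CPM.

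The 41 genes spanned a wide range of abundance. The lower of the TeO and NCC means was between 2.10 and 213 CPM, with a median of 7.81, and the iTeO mean was between 0.578 and 62.7 CPM, with a median of 3.07. The lower natural mean was 20 CPM or more in 10 genes, from 5 to under 20 CPM in 17 and from 2 to under 5 CPM in 14. The ratio of the lower natural mean to the iTeO mean had a median of 2.46 and reached 4.82. It was above 3 in 10 genes and below 2.2 in 15, and it had a median of 2.72 in the most abundant class, 2.16 in the middle class and 2.49 in the least abundant. Just inside the limit of 2 lay genes with ratios of 2.01 and 2.02, and just outside it, among genes without overlap, genes with 1.998 and 1.98.

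**Figure D1:**
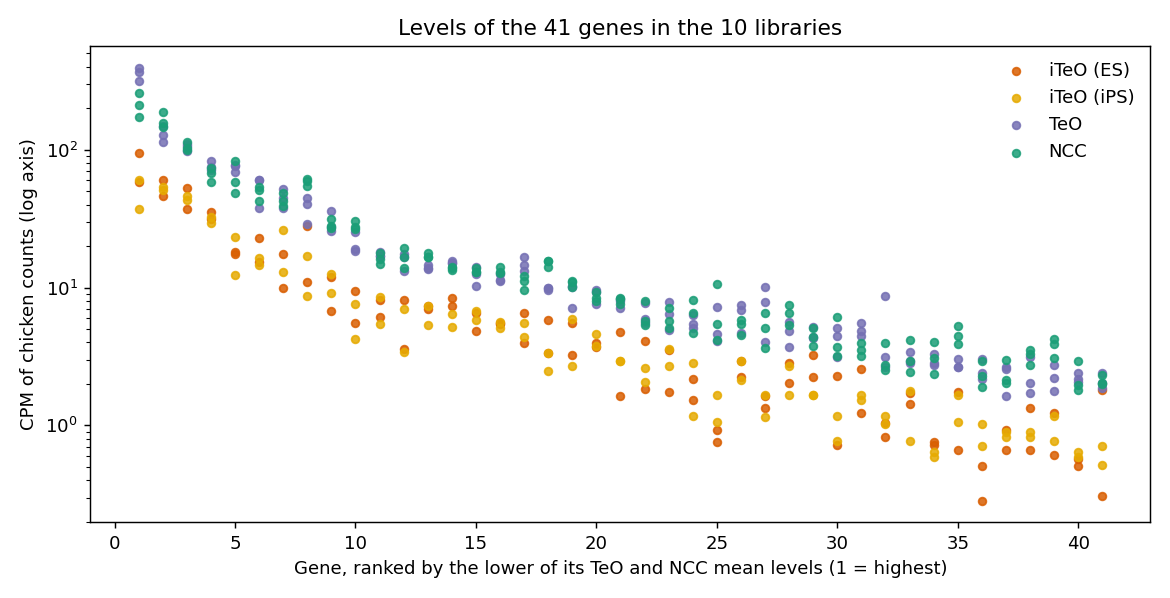
Level of each of the 41 genes (CPM of chicken counts, log axis) in the 10 libraries, with genes ranked on the horizontal axis by the lower of their TeO and NCC means. For each gene the 4 iTeO points lie below the 6 TeO and NCC points, as the rule requires, and the lower natural mean runs from 213 CPM at rank 1 to 2.10 CPM at rank 41.

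The most abundant of these genes was ENSGALG00000030886. It stood at 58.6 and 94.9 CPM in the iTeO (ES) libraries and at 59.9 and 37.4 in the iTeO (iPS) libraries, against 363, 394 and 316 CPM in TeO and 173, 256 and 210 in NCC. Every TeO library lay above every NCC library, and the highest iTeO library, iTeO (ES) replicate 2, was well below the lowest NCC library. The means were 62.7 ± 23.8 CPM in iTeO (SD, n = 4), 358 ± 39.2 in TeO (SD, n = 3) and 213 ± 41.2 in NCC (SD, n = 3). The TeO mean was thus 5.71 times and the NCC mean 3.40 times the iTeO mean, and its ratio of TeO to NCC, 1.68, was the highest among the 41.

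Rank 2 had between 46.3 and 60.7 CPM in the 4 iTeO libraries, 114 to 149 CPM in TeO and 146 to 189 in NCC. Rank 3 had 37.0 to 52.9 CPM in iTeO, 97.2 to 110 in TeO and 99.95 to 114 in NCC. Rank 4 had 29.5 to 35.5 CPM in iTeO, 71.6 to 83.2 in TeO and 58.7 to 73.1 in NCC. In these 3 genes the lower natural mean was 2.46, 2.34 and 2.07 times the iTeO mean. The iTeO libraries of rank 3 were more spread, relative to their mean, than its TeO or NCC libraries.

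Rank 5 stood further apart from its natural level. It stood at 18.1 and 17.4 CPM in the iTeO (ES) libraries and at 23.2 and 12.3 in the iTeO (iPS) libraries, against 77.7, 75.9 and 69.0 CPM in TeO and 82.2, 58.1 and 48.7 in NCC. Its ratio of the lower natural mean to the iTeO mean, 3.55, was the highest among the 10 genes above 20 CPM. The lowest NCC library was still 2.10 times as high as the highest iTeO library, and the 3 NCC libraries were more spread than the 3 TeO libraries.

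Rank 6 stood at 15.3 and 23.0 CPM in the iTeO (ES) libraries and at 14.6 and 16.4 in the iTeO (iPS) libraries, while TeO had 37.7, 60.2 and 59.8 CPM and NCC 42.3, 53.9 and 51.3. Rank 10 stood at 9.40 and 5.52 CPM and at 7.56 and 4.25, while TeO had 18.5, 25.2 and 19.2 CPM and NCC 30.5, 27.3 and 26.7. In rank 6 the natural tissues overlapped each other, and in rank 10 every NCC library lay above every TeO library.

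Other abundant genes were uneven among the iTeO libraries. Rank 8 stood at 27.7 and 11.04 CPM in the iTeO (ES) libraries and at 8.71 and 17.0 in the iTeO (iPS) libraries, against 29.0 to 44.4 CPM in TeO and 54.9 to 61.4 in NCC. Its highest iTeO library nearly reached its lowest TeO library. Rank 7 stood at 9.88 and 17.5 CPM in the iTeO (ES) libraries and at 13.1 and 26.3 in the iTeO (iPS) libraries, with the natural libraries between 37.9 and 51.6. The iTeO library that was highest therefore differed between these 2 genes, iTeO (ES) replicate 1 for rank 8 and iTeO (iPS) replicate 2 for rank 7.

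The gene with the largest ratio was ENSGALG00000038746, at rank 25 by level. It stood at 0.760 and 0.920 CPM in the iTeO (ES) libraries and at 1.66 and 1.06 in the iTeO (iPS) libraries, against 4.57, 7.25 and 4.10 CPM in TeO and 5.42, 4.16 and 10.6 in NCC. The natural libraries varied more than 2-fold among themselves, with NCC replicate 3 the highest, and the highest iTeO library was still well under all of them. The means were 1.10 ± 0.395 CPM in iTeO (SD, n = 4), 5.31 ± 1.70 in TeO (SD, n = 3) and 6.71 ± 3.39 in NCC (SD, n = 3), so that TeO was 4.82 times and NCC 6.09 times iTeO. These levels rest on 8, 9, 13 and 9 counts in the iTeO libraries and on 46 to 117 counts in the natural ones. The 95% Clopper-Pearson interval ended at 2.85 CPM for the highest iTeO library, while for the lowest natural one it ran from 3.0002 to 5.47 CPM, so they did not overlap, and these intervals cover counting error only.

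The second largest ratio, 4.39, belonged to rank 34. It stood at 0.760 and 0.716 CPM in the iTeO (ES) libraries and at 0.640 and 0.590 in the iTeO (iPS) libraries, against 2.76 to 3.30 CPM in TeO and 2.35 to 4.05 in NCC. These iTeO levels rest on 8, 7, 5 and 5 counts, so their closeness cannot be read as precision. Rank 40 was similar, with 0.511 to 0.640 CPM in iTeO, 2.05 to 2.39 in TeO and 1.80 to 2.92 in NCC, a ratio of 3.803. Its iTeO levels rest on 6, 5, 5 and 5 counts. Rank 32 showed one high natural library, with 8.63 CPM in TeO replicate 1 against 2.53 to 3.98 CPM in the other TeO and NCC libraries and 0.818 to 1.18 CPM in iTeO. Rank 27 had 1.15 to 1.65 CPM in iTeO, 4.05 to 10.1 in TeO and 3.63 to 6.50 in NCC, a ratio of 3.51. In ranks 40, 32 and 27 the 95% Clopper-Pearson intervals of iTeO and natural libraries overlapped, and in rank 34 they did not.

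Depth limits what can be said of the less abundant genes. Counts of the 41 genes were between 3 and 928 in single iTeO libraries and between 19 and 4291 in single TeO and NCC libraries. In 13 genes at least 1 iTeO library had fewer than 10 counts, and in 17 genes every iTeO library had at least 30. The 95% Clopper-Pearson intervals of all 4 iTeO libraries lay below those of all 6 natural libraries in 17 genes, of which 16 were among the 27 with a lower natural mean of at least 5 CPM and 1 among the 14 below it. For the remaining genes the interval of at least 1 iTeO library overlapped that of a natural library. An overlap does not by itself show that the difference lay within counting error. The rule required the levels themselves not to overlap, which favours separate intervals, here and in the single genes above. Intervals were computed for the 41 genes only, so no share over all genes is given and nothing is read from the count of 17. A floor of 3 counts corresponds to between 0.285 and 0.384 CPM in iTeO and to between 0.258 and 0.275 CPM in TeO and NCC.

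Added up, the 41 genes had 383 and 389 CPM in iTeO (ES), 361 and 325 in iTeO (iPS), 1107, 1236 and 1106 in TeO and 1009, 1069 and 1067 in NCC. The iTeO sums lay between 325 and 389 CPM, and the TeO and NCC sums were about 3 times as high. The rule asks for more than 2 times the iTeO mean and bounds the TeO to NCC ratio. Nothing is therefore read from this gap or from the likeness of TeO and NCC. Rank 1 contributed 37.4 to 94.9 CPM of the sum in iTeO and 173 to 394 in the natural tissues. Without it the sums were 288 to 325 CPM in iTeO, 743 to 842 in TeO and 813 to 858 in NCC, so that TeO no longer exceeded NCC. The median level over the 41 genes was between 2.25 and 3.70 CPM in iTeO libraries and between 7.16 and 9.35 in TeO and NCC libraries.

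**Figure D2:**
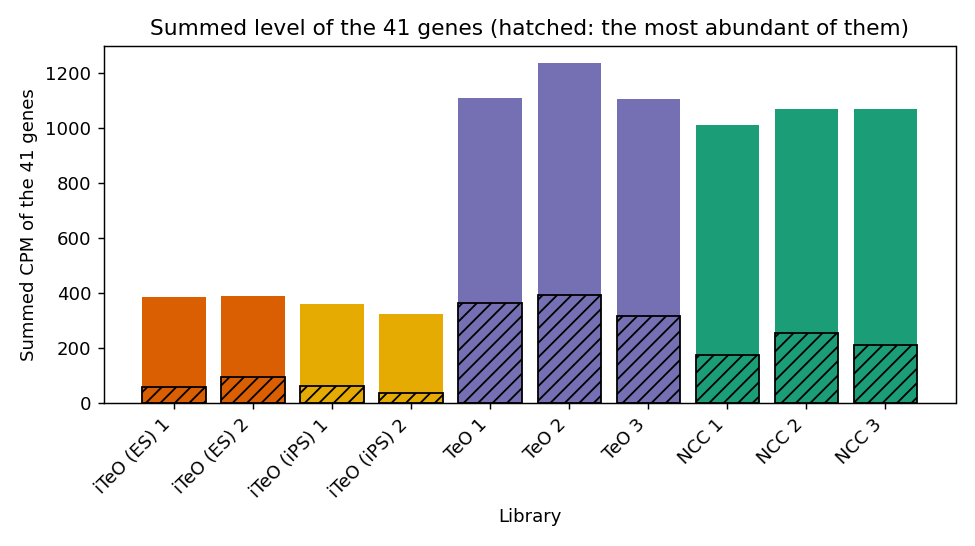
Summed CPM of the 41 genes in each of the 10 libraries, with the part of the most abundant gene hatched. The 4 iTeO bars lie between 325 and 389 CPM and the 6 TeO and NCC bars between 1009 and 1236, a gap that the choice of genes sets in part.

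Among the 41 genes, relative spread was larger in iTeO, whose libraries are of 2 kinds. The spread over all genes was not computed here. The coefficient of variation had a median of 0.299 over the 4 iTeO libraries, against 0.138 over the TeO and 0.125 over the NCC libraries, and fewer counts underlie the iTeO levels. The highest iTeO library was more than 2 times the lowest in 19 genes, and the highest natural library more than 2 times the lowest in 8. The most even gene in iTeO was rank 16, with between 5.12 and 5.66 CPM in the 4 libraries, while its TeO libraries had between 11.2 and 12.5 CPM and its NCC libraries between 12.7 and 14.1. The most uneven, with a coefficient of variation of 0.802, was rank 41, ENSGALG00000040438, with 1.80 and 0.307 CPM in the iTeO (ES) libraries and 0.512 and 0.708 in the iTeO (iPS) libraries, against between 1.87 and 2.42 CPM in the natural libraries. Its highest iTeO library nearly touched the natural range, and its gap to the lowest natural library, a ratio of 1.04, was the smallest of all 41.

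No single iTeO library was the low one throughout. The lowest of the 4 was iTeO (iPS) replicate 2 in 14 genes, iTeO (ES) replicate 2 in 11, iTeO (ES) replicate 1 in 10 and iTeO (iPS) replicate 1 in 6. The highest was iTeO (ES) replicate 1 in 17 genes and iTeO (iPS) replicate 1 in 12, against 7 and 5 for the replicate 2 libraries of iTeO (ES) and iTeO (iPS). Both replicate 1 libraries lay above both replicate 2 libraries in 11 of the 41 genes (26.8%), where 14.0% of the 10427 genes did, and below them in 3 genes (7.32%), where 18.9% did. The share of human counts and that of the most counted chicken gene were also higher in the replicate 1 libraries, and their part in this was not tested. The rule used the same libraries, so nothing further is read from these shares.

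All chicken genes with enough counts, 13999, were fitted together with the quasi-likelihood method of edgeR, with iTeO, TeO and NCC as groups. Calls required a p-value under 0.05 after Benjamini-Hochberg adjustment together with a log2 fold change beyond 1 or -1. All 41 genes passed the filter on low counts. Called lower in iTeO than in TeO were 2.75% of the 13999 genes, and lower in iTeO than in NCC 7.05%. All 41 genes were among those called in both comparisons, which share the iTeO libraries, but the rule had selected them on the same contrasts and nothing is read from that count. The median log2 fold change of the 41 genes was -1.50 against TeO and -1.72 against NCC, and that of all tested genes 0.01 and 0.01.

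Between the natural tissues the 41 genes differed little, since the rule bounds their ratio. The TeO to NCC ratio was between 0.603 and 1.68 with a median of 0.983, and the NCC mean was higher in 23 genes and the TeO mean in 18. Every NCC library lay above every TeO library in 7 genes, where 24.1% of the 10427 genes did, and every TeO library above every NCC library in 4, where 25.2% did. Among the 7 was rank 18, with 9.92, 10.01 and 9.62 CPM in TeO and 15.7, 15.6 and 14.2 in NCC, against between 2.48 and 5.79 in iTeO. Among the 4 was rank 17, with 13.1, 16.5 and 14.5 CPM in TeO and 9.64, 11.2 and 12.2 in NCC, against between 3.99 and 6.54 in iTeO. In the edgeR fit, 0 of the 41 genes were called lower in TeO than in NCC, where 5.93% of 13999 genes were, and 0 were called in either direction, where 12.8% were. At any fold change, 3 of the 41 had an adjusted p under 0.05 by edgeR, all lower in TeO. Of all 13999 genes, 37.6% did in either direction. The rule bounds this ratio, so nothing is read from these counts.

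Each library was left out in turn to obtain a level that had not taken part in the choice of genes. Only that library was free, since the libraries it was compared with had been used to choose the genes. A share above that of all genes was thus favoured by the choice, and the shares are a description and not a test. The rule was applied to the 9 other libraries, and the left-out library was then compared with the libraries of the other class, where iTeO is one class and TeO with NCC the other. Between 37 and 64 genes were selected in this way, 35 to 40 of them among the 41. When an iTeO library was left out, it lay below all 6 natural libraries in 52 of 64 genes (81.3%) for iTeO (ES) replicate 1, 41 of 42 (97.6%) for iTeO (ES) replicate 2, 40 of 45 (88.9%) for iTeO (iPS) replicate 1 and 38 of 39 (97.4%) for iTeO (iPS) replicate 2. Of the 10427 genes that passed the level and ratio conditions, the same 4 libraries lay below all natural libraries in 12.8%, 15.1%, 15.0% and 15.4%.

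A left-out TeO library lay above all 4 iTeO libraries in 93.8%, 97.7% and 100% of the genes selected without TeO replicate 1, 2 and 3, against 15.8%, 17.0% and 20.6% of all genes past the level and ratio conditions. For the NCC libraries it was 97.7%, 97.6% and 95.3%, against 21.2%, 20.8% and 20.4%. The limit of 2-fold was also applied to the left-out library. This limit is met by fewer genes of any kind, so its shares are not ranked against those above. A left-out iTeO library lay below 0.5 times the lower natural mean in 31.3% of the genes selected without iTeO (ES) replicate 1, and in 69.0%, 62.2% and 79.5% of those selected without iTeO (ES) replicate 2, iTeO (iPS) replicate 1 and iTeO (iPS) replicate 2. In all genes past the level and ratio conditions this share was between 0.575% and 1.13%. A left-out TeO library lay above 2 times the iTeO mean in 66.7%, 93.0% and 89.2% of selected genes for replicate 1, 2 and 3. For NCC these shares were 81.8%, 78.6% and 81.4%. Among all genes past the conditions they were between 0.769% and 1.89% for the natural libraries. The libraries of a tissue were not shown to come from separate embryos, so these are values for these libraries.

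**Figure D3:**
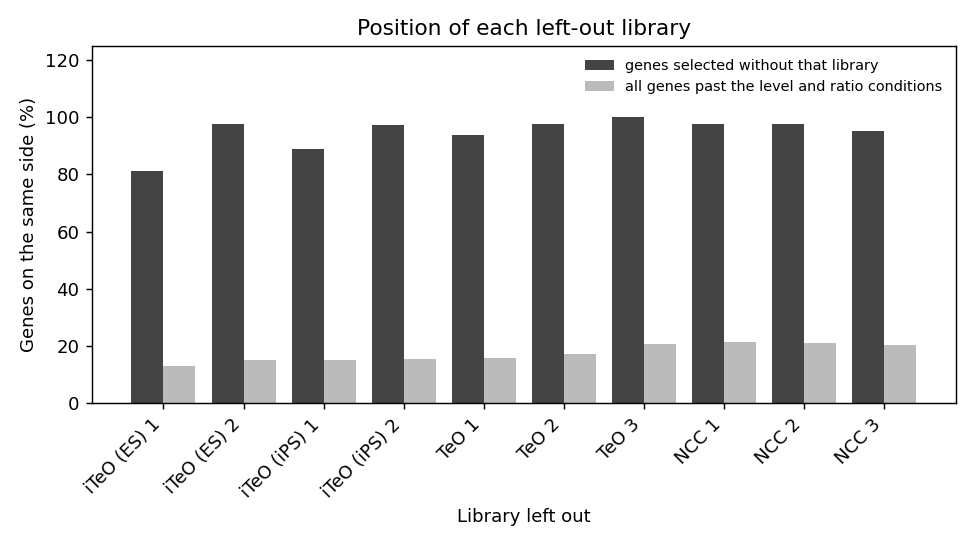
For each library on the horizontal axis, the percent of the genes selected from the 9 other libraries in which the left-out library lay on the same side as the rest of its class (dark bars), beside the percent among all genes past the level and ratio conditions (light bars). The dark bars lie between 81.3% and 100% and the light bars between 12.8% and 21.2%.

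The 41 genes lay at uneven distances along the rows of the table, with gaps of 2 to 2634 rows and a median gap of 358. The closest group, noticed after the values were seen, was a stretch of 18 rows that held 4 of them. These were the only 4 genes with another of the 41 within 25 rows. The order of rows is that of the deposited table, and whether it follows the genome is not stated. The stretch also held 5 other genes above 500 CPM in every library, the most counted chicken gene among them. Of all chicken counts, the 18 rows took 15.6% to 19.2% in iTeO libraries, 23.6% to 26.2% in TeO libraries and 22.1% to 24.5% in NCC libraries.

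In row order, the first of the 4 stood at 11.97 and 6.75 CPM in the iTeO (ES) libraries and at 12.5 and 9.20 in the iTeO (iPS) libraries, and its mean was 10.1 over iTeO, 29.8 over TeO and 28.8 over NCC. The second stood at 2.28 and 0.716 CPM in the iTeO (ES) libraries and at 0.768 and 1.18 in the iTeO (iPS) libraries, with means of 1.24, 4.22 and 4.33. The third stood at 3.51 and 1.74 CPM in the iTeO (ES) libraries and at 3.59 and 2.71 in the iTeO (iPS) libraries, with means of 2.89, 6.39 and 5.95. The fourth stood at 8.07 and 3.58 CPM in the iTeO (ES) libraries and at 7.04 and 3.42 in the iTeO (iPS) libraries, with means of 5.53, 15.7 and 16.6. In the first, the third and the fourth, both replicate 1 libraries were above both replicate 2 libraries, as was the most counted gene in the same stretch.

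The other genes of the stretch did not share one direction. The 5 genes above 500 CPM had iTeO means of 0.742 to 1.03 times the lower natural mean. In all, 8 other genes of the stretch passed 2 CPM in TeO and NCC, these 5 included, and 2 of the 8 had iTeO means above 2 times both natural means, 14.1 CPM against 5.14 in TeO and 4.33 in NCC for one and 9.38 against 2.36 and 2.58 for the other. Genes of low level thus lay both below and above their natural level in the same stretch as far more abundant genes. The library kit keeps the strand, but whether the counting used it is not given in the sources used here, so reads of overlapping genes on opposite strands cannot be told apart, and how far reads of the abundant neighbours entered these counts was not tested.

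**Figure D4:**
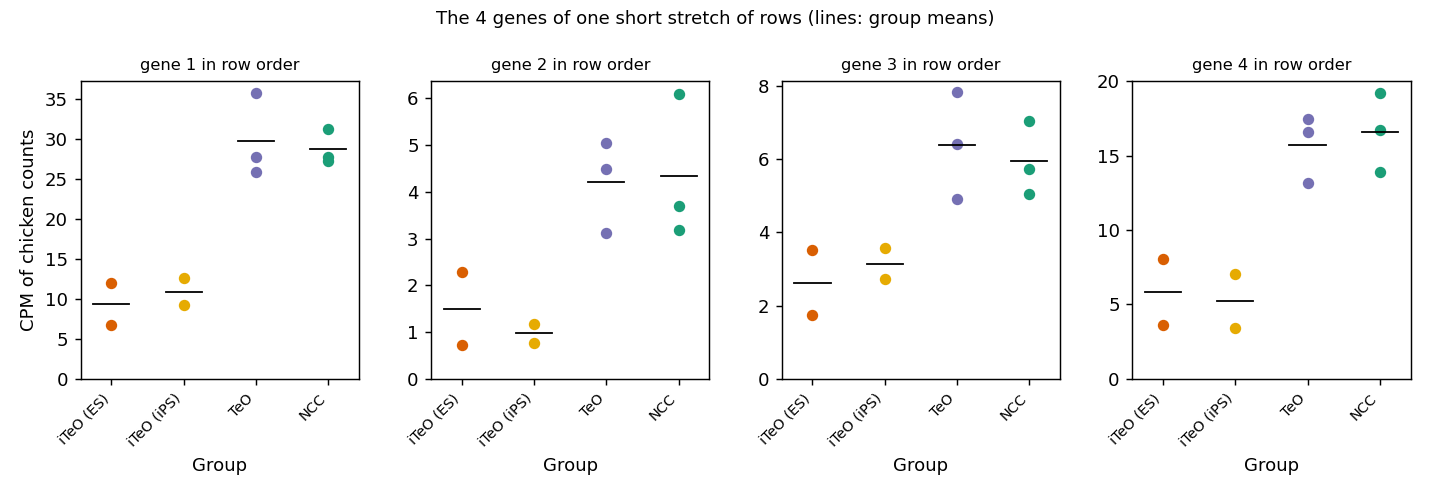
CPM of the 4 genes found within one stretch of 18 rows, in row order from left to right, with a point per library and a line at each group mean. In the first panel the means are 10.1 CPM over all iTeO libraries, 29.8 in TeO and 28.8 in NCC, and each panel has its own axis from 0.

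Outside the stretch, most of the rows next to the other 37 genes did not share their low ratio. The nearest rows on either side that passed 2 CPM in TeO and NCC gave 73 genes that were not among the 41. Their median log2 ratio of iTeO to the mean of TeO and NCC was 0.10, against 0.17 for all 11573 genes at that level and -1.48 for the 41. The ratio was below -1 in 3 of the 73, and the share of all 11573 genes below -1 is not given here. It was below 0 in 43.8% of the 73, more than the 33.6% of all 11573, and this difference was not tested.

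The labels iTeO (ES) and iTeO (iPS) did not enter the rule, but the levels of the same 4 libraries did. A gene that is high in one kind of iTeO could not be chosen, since the highest iTeO library had to lie below every natural one, so the counts of differences between the kinds are limited by the choice and are given as a description beside those of all genes. The comparison used a fit of the same 13999 genes in which each kind of iTeO was a group of its own, 4 groups in all. None of the 41 genes was called, that is 0 genes by the quasi-likelihood test of edgeR and 0 by DESeq2, where edgeR called 0.0143% of all tested genes and DESeq2 called 0.290% of the genes it gave an adjusted p-value. Without adjustment, 3 of the 41 (7.32%) had a p-value under 0.05 by edgeR, all higher in iTeO (ES), where 9.18% of all tested genes did, and 0 of the 41 by DESeq2, where 5.31% did. By edgeR this count was 3 without iTeO (ES) replicate 1, 10 without iTeO (ES) replicate 2, 5 without iTeO (iPS) replicate 1 and 0 without iTeO (iPS) replicate 2, where 9.92%, 16.4%, 8.62% and 6.15% of all tested genes passed. The lowest adjusted p-value among the 41 was 0.509 by edgeR, fell to 0.0646 without iTeO (ES) replicate 2, and was otherwise between 0.198 and 0.837 over the alternatives, DESeq2 included.

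The log2 fold changes of iTeO (ES) over iTeO (iPS) were between -1.11 and 0.78 with a median of 0.06, positive in 26 genes and beyond an absolute value of 1 in 1 gene. Their standard errors were between 0.14 and 0.75 with a median of 0.36, so that at the median a 2-fold difference between the kinds of iTeO would have been under 3 standard errors. Both iTeO (ES) libraries lay above both iTeO (iPS) libraries in 4 genes (9.76%) and below them in 3 (7.32%), where 18.3% and 13.9% of the 10427 genes did, and the rule limits the former shares. In 17 of the 41 genes the standard error was small enough for a 2-fold difference to exceed 3 standard errors. For the others the precision was lower, and the absence of a call does not show that the kinds of iTeO were alike.

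The lowest fold change belonged to ENSGALG00000036239, at rank 36 by level. It stood at 0.285 and 0.511 CPM in the iTeO (ES) libraries and at 1.02 and 0.708 in the iTeO (iPS) libraries, which gives -1.11 on the log2 scale, with a standard error of 0.57 and an adjusted p of 0.582 by edgeR (0.333 to 0.922 over the alternatives). These levels rest on 3, 5, 8 and 6 counts, and the natural libraries had between 1.90 and 3.03 CPM. The highest belonged to ENSGALG00000040438, described above, at 0.78 on the log2 scale, with a standard error of 0.66 and an adjusted p of 0.793 by edgeR. It rested on iTeO (ES) replicate 1, with 19 counts against 3, 4 and 6 in the other iTeO libraries, and without that library it was -0.98. For ENSGALG00000030886 the value was 0.64 with a standard error of 0.32 (edgeR, adjusted p of 0.603). For ENSGALG00000038746 it was -0.70 with a standard error of 0.68 (edgeR, adjusted p of 0.835).

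**Figure D5:**
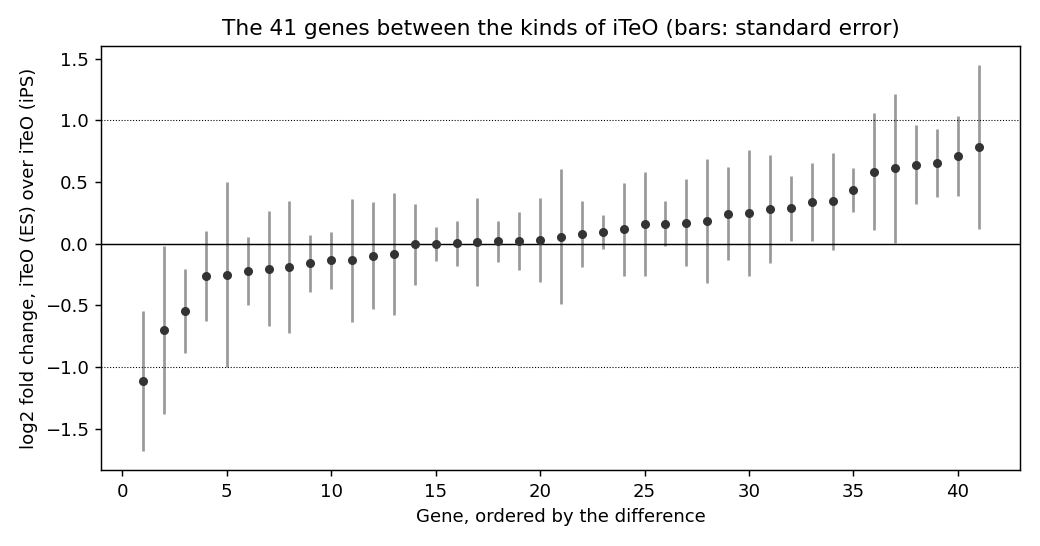
Log2 fold change of iTeO (ES) over iTeO (iPS) for the 41 genes, in order of size, with bars of 1 standard error from the edgeR fit and dotted lines at 1 and -1. The points run from -1.11 to 0.78, 26 of them above 0, and none passed the test.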

How the data were processed

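Stranded total RNA libraries of 4 iTeO, 3 TeO and 3 NCC samples were sequenced in single-end mode. The deposited values are raw counts per gene. Per the methods and the submitters' processing notes, the authors trimmed reads with Trimmomatic, aligned them with STAR 2.7.1a to the GRCh38 human and galgal5 chicken genomes joined into one reference and counted uniquely mapped reads with featureCounts, excluding reads of equal similarity to both genomes. No normalization was applied to the counts.

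Samples were grouped by their titles. CPM were computed over chicken genes. Tests on chicken counts used the edgeR package 4.0.16 under R 4.3.3 (TMM factors, filterByExpr by tissue, robust quasi-likelihood fit over 10 libraries, Benjamini-Hochberg adjustment), with DESeq2 1.42.0 as an alternative and standard errors derived from the fold change and its F statistic. Intervals of single levels were computed in Python 3.11.15 with scipy 1.17.1. The edgeR procedure and the rule were tested on simulated data. The genes, the rule and the comparisons were chosen with earlier results of these data known. Identifiers carry no names here, so lists of cell type markers and pathway genes were not used and 4 genes were named: those with the largest ratio of natural to iTeO level, the highest natural level, and the highest and lowest fold change between the kinds of iTeO. Depth was between 7832388 and 11631102 counts per library. Alternatives were other scalings, limits and filters, DESeq2, the replicate number as a block and each library left out.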

Additional observations from a re-analysis of the deposited data

Results flagged for a closer look

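Counts on human genes lay outside the measurement of chicken genes and were above the range of TeO and NCC, at most 0.137% of all counts, in iTeO (ES) replicate 1 with 0.371% and in iTeO (iPS) replicate 1 with 0.299%. The summed level of the 41 genes in these libraries, 383 and 361 CPM, lay within the 325 to 389 CPM of the replicate 2 libraries. Without the most abundant gene the sums were 325 and 301 CPM, above the 294 and 288 CPM of the replicate 2 libraries. The median level of the 41 genes was also higher, 3.70 and 3.33 CPM against 2.25 and 2.71. The part of human counts in this was not tested. None of the 41 genes had an iTeO library standing apart from the other 3 by Dixon's criterion.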

How the results depend on the processing

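The number of genes that meet the rule, 41, was 92 with TMM factors, 91 with the size factors of DESeq2 and 71 without the most counted gene in the library totals, and all 41 were among them each time. It was 27 at a minimum of 5 CPM, 169 at a fold of 1.5 and 10 at a fold of 3. With each library left out in turn it was between 37 and 64, and 64 were taken without iTeO (ES) replicate 1. It was 42 in CPM of all counts, 59 at a minimum of 1 CPM, 44 without the condition on overlap and 44 without the bound on TeO to NCC. Setting aside the stretch of 18 rows left 37. The CPM were not rescaled for this, so 37 only reflects the 4 genes in the stretch and shows nothing on scaling. The left-out libraries lay on the same side as their class in 94.0% of selected genes, pooled over all 10 libraries, and in 96.2% with TMM factors. A gene is counted in this pool each time it was selected. Among all genes past the level and ratio conditions, the shares per library were 12.8% to 21.2% in CPM. With TMM factors they were higher, 27.2% to 36.6%, so the rise to 96.2% is not read as a gain. The choice of genes favours such shares, as said above. The settings without the most counted gene, without the stretch and with TMM factors for left-out libraries were chosen after seeing the data. By DESeq2, and by edgeR with no filter or the other scaling, all 41 genes were called lower in iTeO than in both natural tissues. The same held with each library left out, except that 40 were called against TeO without TeO replicate 1. Of 19605 genes, edgeR with no filter called 437 lower in iTeO than in TeO and 1148 lower than in NCC. DESeq2 called 377 of 15416 and 1048 of 16556 genes with an adjusted p-value. The rule had selected the 41 genes on these contrasts, so nothing is read from their counts. None was called between TeO and NCC or between iTeO (ES) and iTeO (iPS) in any of these fits or in a fit of the 4 iTeO libraries alone, in which 29 of the 41 passed the filter. Leaving out an iTeO library leaves 1 library of that kind, which is then assumed to vary like the others. The log2 fold change of ENSGALG00000040438 between iTeO (ES) and iTeO (iPS) was -0.98 without iTeO (ES) replicate 1, and its adjusted p-value was between 0.143 and 0.9997 over the fits.

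The replicate numbers were not taken to pair the libraries, since the labels do not state a pairing. The deviations of same-numbered TeO and NCC libraries correlated at 0.36, -0.28 and 0.38 across genes, which does not settle whether they are paired. With a block for the replicate number, all 41 genes were called lower in iTeO than in TeO and in NCC. Of the 13999 genes tested, 359 and 983 were called. Of the 41 genes, 0 were called between TeO and NCC and 0 between the kinds of iTeO. The rule limits these counts of the 41 genes, so nothing is read from them. The correlation was -0.11 between iTeO (ES) and iTeO (iPS), and with those numbers crossed in the block, added after seeing the data, 0 of the 41 genes were called.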
